A study of Mus musculus with 6 samples.

Results

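Neurotransmitter receptors are the proteins through which a neuron reads the chemical signals of its neighbours, and this account follows their transcripts in the cells of the mouse nose and in brain. The members were taken by gene symbol, with a rule set when earlier results of these data were known. For glutamate they were AMPA, NMDA, kainate, delta and metabotropic receptors. The others were GABA-A and GABA-B, glycine, nicotinic and muscarinic acetylcholine, serotonin, dopamine and adrenergic receptors. The members made up 154 of 45137 probe sets, the groups of short probes that each report on 1 transcript. They stood for 80 of 18193 genes. Of these genes, 32 had 1 probe set and 48 had 2 or more, at most 5.

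Olfactory sensory neurons (OSNs) detect odours in the nose, and the mature ones were sorted by fluorescence from OMP-GFP mice, in which GFP stands in the place of the coding sequence of Omp, the marker gene of these cells. The comparison samples were olfactory epithelium of OMP-GFP mice after the fluorescent cells had been taken out (the residual epithelium) and OMP-GFP brain from which the olfactory bulbs had been removed. Whether these came from the same animals is not stated. About 500000 sorted cells and 2500000 residual cells were extracted. All 3 populations carried the GFP allele, which labels vomeronasal as well as olfactory neurons, and the sources used here state no age, sex or number of animals. Every population was hybridised once to each of 2 Affymetrix designs, chip A and chip B, which carry largely different probe sets, so that no value has a replicate, no test across samples was possible and no p-value is given.

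Ionotropic receptors are channels that open when glutamate, GABA, glycine, acetylcholine or (for the Htr3 subunits) serotonin binds, whereas metabotropic receptors act through G proteins. The axon terminals of OSNs in the olfactory bulb are under presynaptic control, and GABA and dopamine released by bulb interneurons reduce glutamate release there through GABA-B and D2 receptors.

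Of the 47 receptor genes whose brain signal was at or above the median of its chip, 31 (66%) were under that median in OSNs, as were 17% of all 11212 genes chosen the same way. Within the epithelium, a dopamine and a GABA-B receptor gene had the largest ratios in favour of OSNs. Drd2, which encodes the D2 dopamine receptor, exceeded its residual epithelium signal 25-fold in OSNs. Gabbr1, which encodes the ligand-binding subunit of the GABA-B receptor, exceeded it 4.07-fold. Only 2 further genes, Gabrg3 and Grin2d, passed 2-fold in that direction, and 2, Chrna7 and Glrb, passed it in the other. A gene was called from a ratio of 2-fold where its higher signal was at least the median of that chip, which was 222 for chip A and 243.7 for chip B. Signals under the lower quartile of a chip, 70.3 and 79.7, were raised to that floor first, and a ratio taken against the floor is given as "at least". Counts of genes rest on 1 representative probe set per gene. For OSNs over residual epithelium, 4 of 80 receptor genes were thus higher and 2 lower, where 8.63% and 12.6% of all genes were. Only 18 of the 80 had a signal high enough to be called in this comparison, as had 12254 of all 18193 genes. The shares over 80 therefore also reflect how few receptor genes could be called.

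Signals on the 2 chips were on different scales. The 100 probe sets that both chips carry read 3.26 times higher on chip B in OSNs, 3.84 times in residual epithelium and 2.85 times in brain, by their median, so levels are given per probe set and ratios only within a chip. The log2 ratios of these shared probe sets differed between chips with an SD of 0.25 for OSNs over residual epithelium, 0.29 for OSNs over brain and 0.34 for residual epithelium over brain. On average chip B differed from chip A by -0.23, 0.19 and 0.42 in the same order. Different probe sets of 1 receptor gene, with signals high enough to be called, differed more. For OSNs over residual epithelium the root mean square of their differences was 1.12, over 9 pairs. For OSNs over brain it was 2.0, over 49 pairs. Over all genes it was 0.87 and 1.13, over 13838 and 15065 pairs. A gene with several such probe sets gives several pairs, so the pairs are not independent. Gabbr1, with 3 in the first comparison, adds to its own yardstick. These spreads, and the agreement of different probe sets of a gene, are the yardsticks for the ratios below. Whether both chips received the same RNA of a population is not stated. What the SDs between chips hold (hybridisation alone, or extraction and animals too) is therefore unknown.

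**Figure D1:**
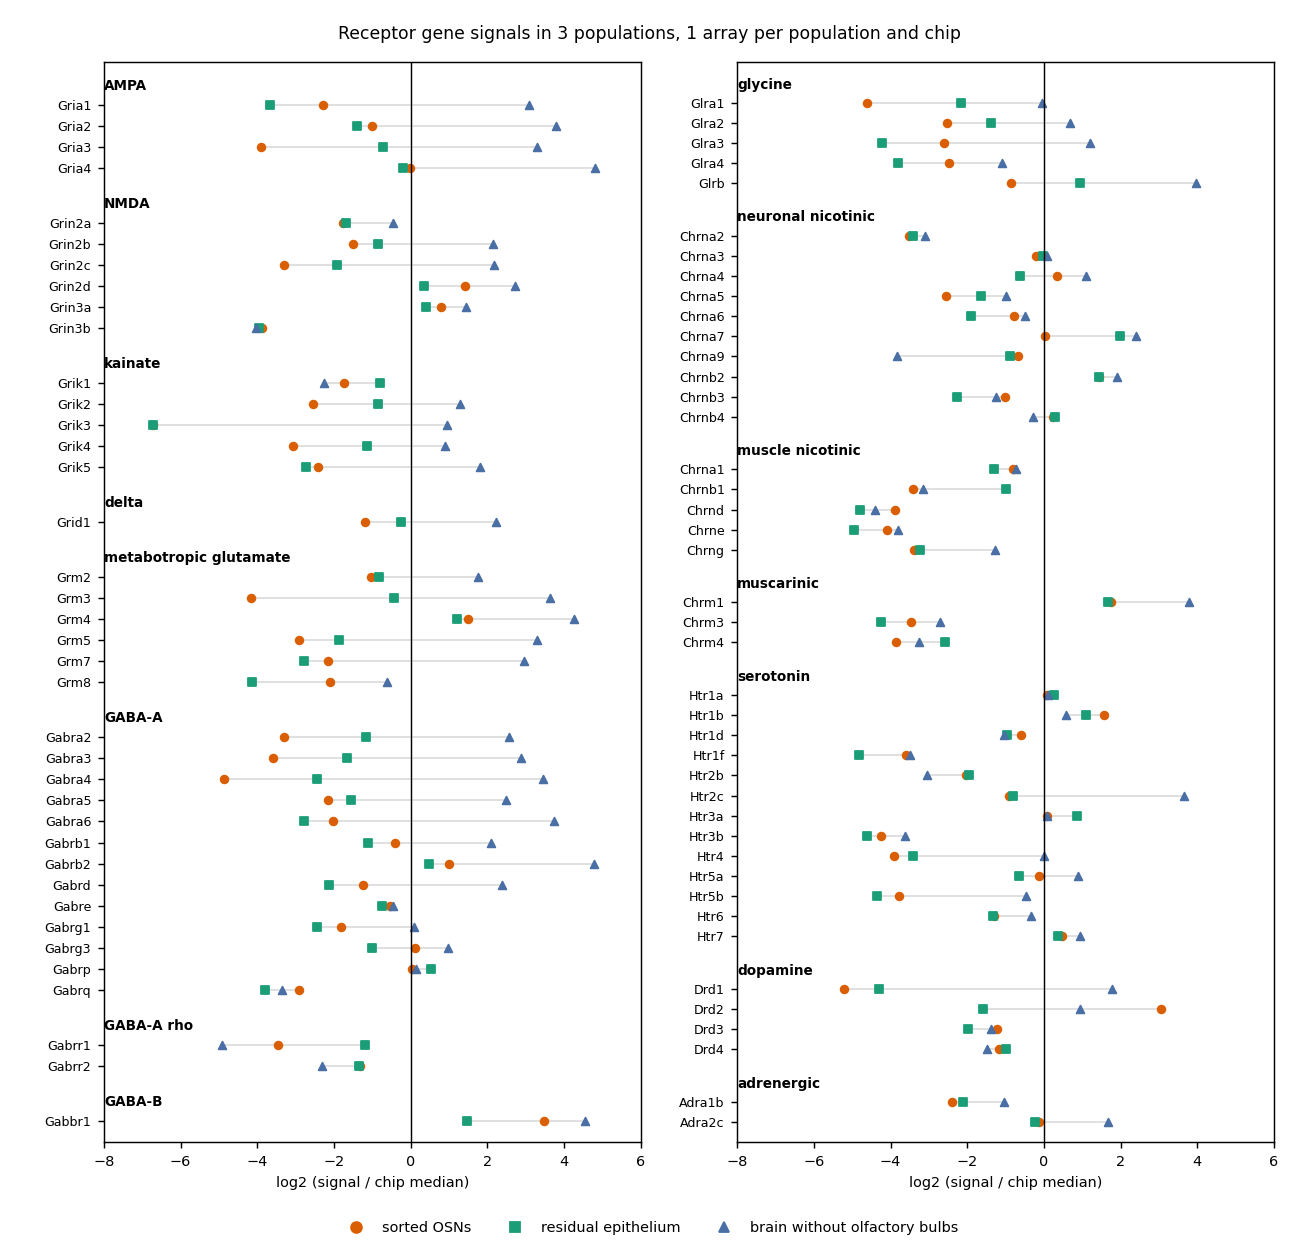
Signal of each of the 80 receptor genes relative to the median of its chip (x axis, log2 units), by family, in sorted OSNs (circles), residual epithelium (squares) and brain (triangles), with 1 array per population and chip and 1 representative probe set per gene. Brain lies to the right of the vertical line, at or above the chip median, for 47 genes, OSNs for 17 and residual epithelium for 15, and the OSN points furthest right are those of Gabbr1 and Drd2.

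Drd2 was measured by 1 probe set, 1418950_at on chip A. OSNs gave a signal of 1839, residual epithelium 73.5 and brain 426. The residual signal lay just above the floor, and the OSN signal was 4.32-fold above brain, where this receptor is known from the striatum and from dopamine neurons rather than from all regions. The log2 ratio of OSNs over residual epithelium, 4.64, stood beside an SD of 0.25 between chips. Between probe sets of a receptor gene the root mean square difference was 1.12. The SD comes from probe sets that both chips carry, and neither spread gives the error of 1 probe set with a signal near the floor. The log2 ratio of Drd2 ranged from 3.65 to 4.67 over 7 alternative ways of computing it. The lowest value came from a pseudocount in place of the floor. In bulk samples such as these, fewer cells of a type and less RNA per cell cannot be told apart.

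None of the other dopamine receptor genes measured had a signal high enough to be called between OSNs and residual epithelium. Drd1, the D1 receptor of striatal and cortical neurons, had signals of 6.6, 12.3 and 832 in OSNs, residual epithelium and brain, and was at least 10.4-fold lower in OSNs than in brain. Drd3 and Drd4 were under the chip median in all 3 populations, with OSN signals of 95.6 and 99.0.

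Gabbr1 had 4 probe sets, all on chip A. Probe set 1455021_at read 2483 in OSNs, 609 in the residual epithelium and 5233 in brain. The next, 1437188_at, read 1145, 165 and 1561, and 1422051_a_at read 690, 93.5 and 1510. OSNs lay between the other populations on each of these, at 4.07-fold, 6.95-fold and 7.38-fold over residual epithelium. The fourth, 1425595_at, was under the chip median throughout, with 111, 64.4 and 143 in the same order of populations and at least 1.58-fold over residual epithelium. Against brain the 3 brighter probe sets were 2.11-fold, 1.36-fold and 2.19-fold lower, so the call of Gabbr1 as lower than brain turns on which probe set represents the gene, while its enrichment within the epithelium was called with each of the 3. The GABA-B receptor works as a pair with a second subunit, which was not analysed here.

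Because these genes had the 2 largest ratios within the epithelium, the 250 bases before the annotated start of each are shown, 5′ to 3′ as read on the gene's strand, from RefSeq with build GRCm38.p6. Drd2 is on the plus strand at chr9:49340153-49340402 and Gabbr1 on the plus strand at chr17:37045716-37045965. Capitals mark GGGCGG on either strand, the GC box that Sp1-type factors bind.
Drd2: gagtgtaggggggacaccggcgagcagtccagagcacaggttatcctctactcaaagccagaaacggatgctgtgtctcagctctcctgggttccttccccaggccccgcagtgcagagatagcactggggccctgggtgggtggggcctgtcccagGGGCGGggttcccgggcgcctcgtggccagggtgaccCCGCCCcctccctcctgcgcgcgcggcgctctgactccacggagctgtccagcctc
Gabbr1: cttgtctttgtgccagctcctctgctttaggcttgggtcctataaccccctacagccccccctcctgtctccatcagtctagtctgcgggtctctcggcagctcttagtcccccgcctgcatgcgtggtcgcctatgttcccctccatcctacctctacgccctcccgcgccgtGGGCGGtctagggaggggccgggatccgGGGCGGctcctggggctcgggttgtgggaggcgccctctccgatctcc

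Each stretch held 2 GC boxes and was GC-rich, 68.8% for Drd2 and 66.0% for Gabbr1, beside a median of 52.4% over all 32851 RefSeq promoters and 59.2% over the 73 promoters of 61 receptor genes. In the full windows, which run 50 bases further than those printed, a GC box was in 37 of the 73 receptor promoters and in 35.7% of all promoters. Neither window held the core of the Olf/EBF motif named for olfactory neurons (TCCC, any 2 bases, then GGGA), nor TGACGTCA, the cyclic AMP response element. The first was in 2 receptor promoters, those of Gabrg1 and Grm7, and in 0.904% of all, and the second in 0 of 73 and in 1.79% of all (both strands, exact letters). The GC box was searched after the other motifs had been, and a match is a description of letters, not of a bound site.

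**Figure D2:**
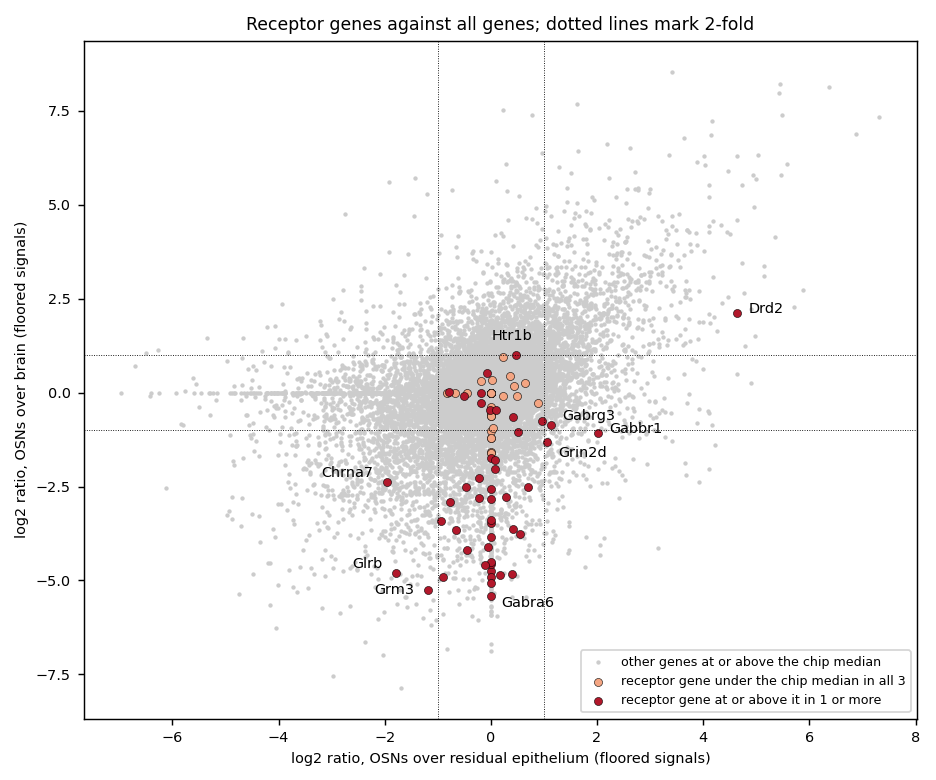
Log2 ratio of floored signals of OSNs over residual epithelium (x axis) against OSNs over brain (y axis) for the 80 receptor genes (large points) and for other genes at or above the chip median (small grey points), with 2-fold marked by dotted lines. Most receptor genes form a column near 0 on the x axis that reaches down to -5.40 on the y axis at Gabra6, and Drd2 lies apart at 4.64 and 2.11. Where both nasal signals were under the floor, as for Gabra6, the x value is set to 0 and does not mean equal signals. Only 18 of the 80 genes reached the signal filter on the x axis.

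Among excitatory receptors, the channels gated by glutamate had low signals in both nasal populations for most genes. Of all genes, 14.3% were called lower in OSNs than in brain, the share to set beside the counts of each family. Where a gene called lower had an OSN signal under the chip median, the sign of its ratio follows from the filter. AMPA receptors (Gria1 to Gria4), which carry most fast excitation in brain, had OSN signals of 45.5, 110, 16.2 and 239 and residual signals of 17.4, 83.5, 148 and 212, against brain signals of 1894, 3098, 2412 and 6885. All 4 were lower in OSNs than in brain, Gria2 by 28.2-fold, Gria4 by 28.9-fold, Gria1 by at least 26.9-fold and Gria3 by at least 30.3-fold. These values come from the representative probe sets, none of which reached the chip median in either nasal population. The other probe sets of these genes were also called lower against brain, by at least 54.1-fold with 1434146_at of Gria2 but some by much less, 1453098_at of Gria2 by 2.14-fold (241, 217 and 514), 1421351_at of Gria4 by 2.94-fold and 1420563_at of Gria3 by 7.57-fold. The first of these was just above the chip median of 222 in OSNs. Of 5 kainate receptor genes 4 were lower than in brain, with Grik5 at least 11.1-fold, Grik2 at least 7.48-fold, Grik3 at least 5.91-fold and Grik4 at least 5.69-fold lower. The delta receptor gene Grid1, which encodes a synapse-organising relative of these channels, was 10.7-fold lower, with signals of 107, 204 and 1148.

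NMDA receptor genes, whose channels need glutamate together with glycine, were less uniform. Grin2b read 85.4, 135 and 1075 in that order and was 12.6-fold lower in OSNs than in brain, and Grin2c was at least 14.3-fold lower. Grin2d, whose subunit gives slow channels and is known from early development, read 645 in OSNs, 310 in the residual epithelium and 1618 in brain with its chip B probe set 1442328_at. OSNs were thus 2.08-fold above residual epithelium and 2.51-fold below brain. Its chip A probe set read 139, 140 and 138, under the chip median and without a difference between populations. The call over residual epithelium ended with a pseudocount in place of the floor and with the median over probe sets. Grin3a, a subunit that lowers calcium entry, read 425, 319 and 665 with 1458378_at. Its other probe sets, 1438866_at with 38.2, 248 and 689 and 1436575_at with 74.4, 168 and 927, were lower in OSNs than in residual epithelium, at least 3.11-fold on the first, so its probe sets disagreed in direction.

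Metabotropic glutamate receptors were lower in OSNs than in brain for 5 of 6 genes, where 14.3% of all genes were. Grm3, a receptor of astrocytes and neurons, read 13.6, 181 and 3039, and Grm5, a postsynaptic receptor, 32.5, 67.0 and 2371. They were at least 38.1-fold and at least 29.8-fold lower in OSNs. The residual signal of Grm3 was at least 2.27-fold that of OSNs but stayed under the chip median, so that it was not called. Grm2, a presynaptic inhibitory receptor, was 6.95-fold lower than in brain. Grm4, another presynaptic receptor, was the member of this family that reached the chip median in the nose, with 687 in OSNs and 565 in residual epithelium, which is within 2-fold, against 4699 in brain, 6.84-fold above OSNs.

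Inhibitory channels followed the same division. Of 13 GABA-A subunit genes 9 were lower in OSNs than in brain, where 14.3% of all genes were. Among these 9 only Gabrb2 reached the chip median in OSNs, so the sign of the other ratios follows from the filter. Gabra6, the alpha subunit of cerebellar granule cells, read 54.7, 32.5 and 2976 and was at least 42.3-fold lower, and Gabra4, a subunit of forebrain channels outside the synapse, read 8.3, 44.7 and 2658 and was at least 33.4-fold lower. Gabrb2, a main beta subunit, read 490, 337 and 6702 with 1428205_x_at, and was 13.7-fold lower in OSNs than in brain. Its other 3 chip B probe sets put OSNs below residual epithelium, by 2.06-fold with 1428204_at, whereas the chip A probe set put them 1.61-fold above. The suffix _x_at marks probe sets with probes that can match other transcripts.

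Gabrg3, a gamma subunit, read 264 in OSNs, 120 in the residual epithelium and 479 in brain with 1444549_at, or 2.19-fold over residual epithelium. Its OSN signal was barely over the chip median of 243.7, and its other 3 probe sets were under the chip median in every population, 2 of them with OSNs and residual epithelium both under the floor. Its call ended with a pseudocount, a floor at percentile 40, a filter at percentile 75 or the median over probe sets. Gabrp, a subunit known from epithelia such as those of airway and glands, was nearly level across the populations, with 228, 323 and 243 on one probe set and 231, 309 and 214 on the other. Residual epithelium was the highest on both, at 1.42-fold and 1.34-fold over OSNs, under the 2-fold call.

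Glycine receptor genes were lower in OSNs than in brain for 3 of 5, where 14.3% of all genes were. None of the 3 reached the chip median in OSNs. Glrb, the subunit that ties glycine receptors to the gephyrin scaffold, read 135 in OSNs, 469 in the residual epithelium and 3787 in brain with 1459850_x_at. OSNs were 3.46-fold below residual epithelium and 28-fold below brain. Its chip A probe set 1422504_at read 16.5, 15.5 and 913, which puts both nasal populations under the floor, where no ratio can be formed. The call against residual epithelium ended with the median over probe sets and with a filter at percentile 75. Glra3 and Glra2, 2 of the alpha subunits that bind glycine, were at least 7.06-fold and at least 4.88-fold lower in OSNs than in brain.

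Of 15 nicotinic receptor genes, 1 was called lower in OSNs than in brain and 0 higher, beside 14.3% and 12.6% of all genes. Chrnb2, the beta subunit of the main brain receptor, read 655, 665 and 907 with 1436428_at, and Chrnb4, its ganglionic relative, 285, 298 and 200, each within 2-fold across all 3 populations by these probe sets. Chrna3, which pairs with Chrnb4 in autonomic ganglia, read 211, 239 and 255. Chrna4, the partner of Chrnb2, read 279, 143 and 475 with 1421203_at, with OSNs 1.95-fold above residual epithelium, just outside the call, and its other probe sets gave 1.35-fold and 1.21-fold. Those 2 were 2.04-fold and 3.46-fold lower in OSNs than in brain, where 1421203_at was 1.70-fold lower. None of the 5 muscle-type subunit genes reached the chip median in any population.

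Chrna7, which forms calcium-permeable receptors in neurons and in macrophages, read 246 in OSNs, 961 in the residual epithelium and 1289 in brain with 1440681_at on chip B. OSNs were 3.90-fold below residual epithelium, while residual epithelium and brain stayed within 2-fold of each other, at a log2 ratio of -0.42. The chip A probe set had the same order at lower signals, 60.8, 97.9 and 150, all under the chip median and with OSNs under the floor. It put OSNs at least 1.39-fold below residual epithelium, which was not counted. Chrna9, a subunit known from hair cells of the ear, was singled out after its values were seen. Its probe set 1430086_at read 17.3, 251 and 14.3, at least 3.14-fold higher in residual epithelium than in both other populations, whereas 1445615_at read 154, 131 and 17.1 and 1447214_at read 33.6, 95.2 and 123. The 3 probe sets thus gave 3 different orders of the populations.

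**Figure D3:**
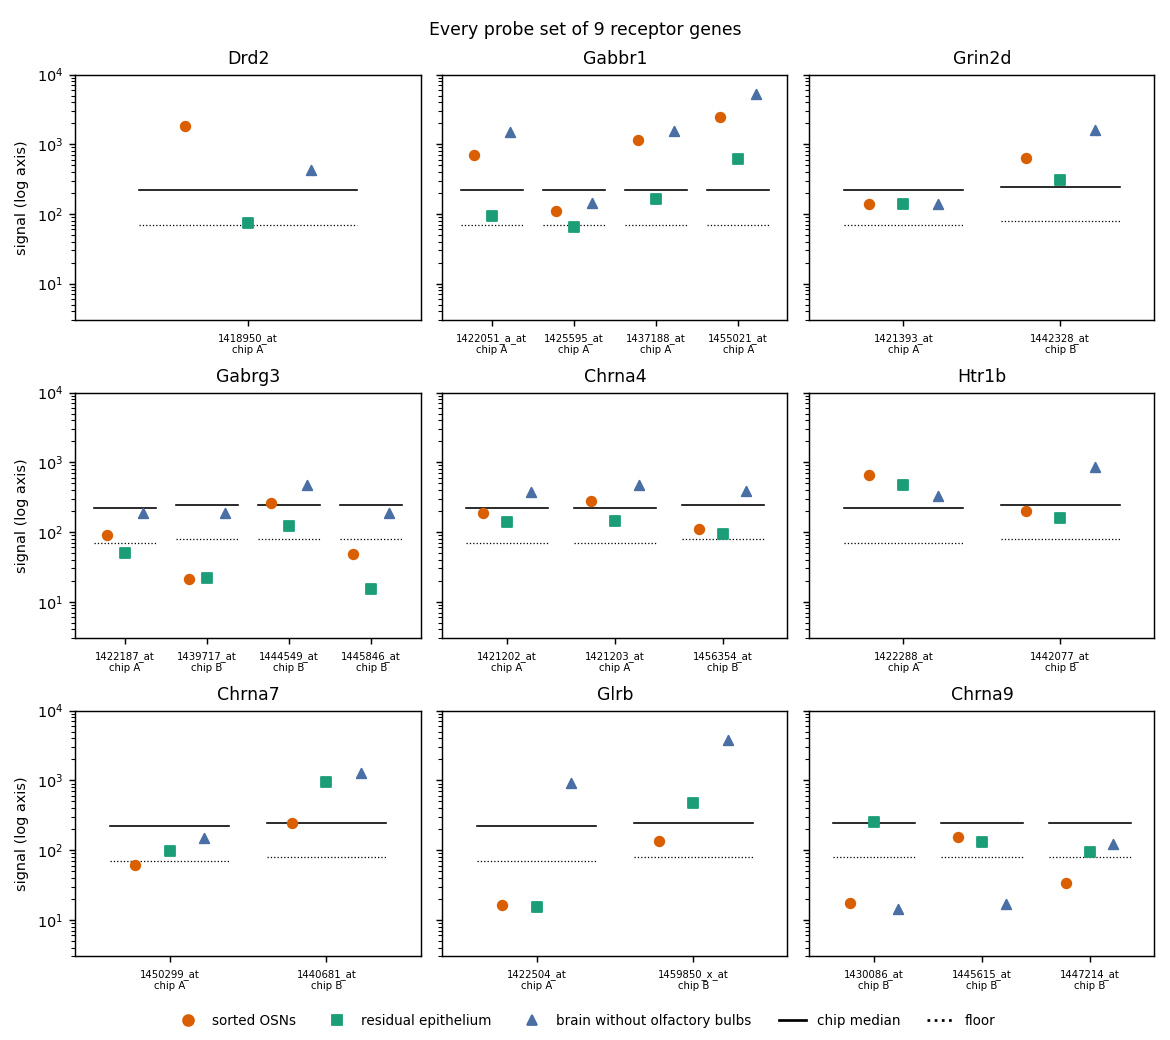
Signals (y axis, log scale) of every probe set (x axis) of 9 receptor genes in sorted OSNs (circles), residual epithelium (squares) and brain (triangles), 1 array each, with the chip median (solid line) and the floor (dotted line). The 3 brighter Gabbr1 probe sets keep the order brain, OSNs, residual epithelium, whereas those of Grin2d, Htr1b, Glrb and Chrna9 differ among themselves.

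The receptors that are higher in residual epithelium were measured in a mixture. In the same arrays all 5 neutrophil and marrow markers were lower in OSNs, with summed signals of 738 in OSNs, 46346 in the residual epithelium and 423 in brain, and so were all 4 macrophage markers (886, 14324 and 3243) and 3 of 4 markers of immature OSNs and progenitors (1879, 9514 and 4372 on chip A). Of the 4 glial markers Cnp was lower in OSNs than in residual epithelium and Slc1a2 higher. No marker of these lists was under the floor in residual epithelium. The part of these cells in the signals of Chrna7, Glrb and Chrna9 was not tested. All 6 mature OSN markers were higher in OSNs, with a residual sum of 1599 against 35569 in OSNs on chip A, or 2786 against 129095 on chip B. Of 5 markers of sustentacular cells, the supporting cells of the epithelium, 3 were lower in OSNs and the other two were not: Cyp2g1 read 3822 in OSNs and 2657 in residual epithelium, and Cyp1a2 424 and 335. The part of these cells in the receptor signals that were level between the nasal populations was not tested.

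Among the remaining receptors coupled to G proteins, Chrm1, the main muscarinic receptor of forebrain, read 816, 776 and 3340 with 1439611_at, equal in the nasal populations within 2-fold and 4.09-fold below brain in OSNs. Its chip A probe set read 29.0, 26.4 and 283, with both nasal signals under the floor. Chrm3 and Chrm4 were under the floor in all 3 populations. Adra2c, an alpha-2 adrenergic autoreceptor, read 222, 209 and 771 and was 3.47-fold lower in OSNs than in brain.

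Serotonin receptors were mixed. Htr2c, known from the choroid plexus and from neurons, read 129, 138 and 3073 and was 23.9-fold lower in OSNs than in brain. Htr5a was 2.05-fold lower, near the threshold, and its other probe set had a log2 ratio of -0.35, which was not counted. The call of Htr5a ended with a pseudocount, a filter at percentile 75, quantile normalization, a 3-fold threshold or the median over probe sets. Htr1b, a presynaptic inhibitory receptor, read 660, 472 and 330 with 1422288_at on chip A, which puts OSNs 2.0-fold over brain, at the threshold. On chip B probe set 1442077_at read 198, 157 and 844, or 4.26-fold lower in OSNs, so its direction against brain is not settled by these arrays. Htr7 with 338, 315 and 464 and Htr3a, the channel-forming subunit, with 236, 407 and 234 stayed within 2-fold in all 3 comparisons by their representative probe sets. So did Htr1a with 235, 268 and 237, but its other probe set, with 208, 132 and 362, put residual epithelium 2.74-fold below brain. Residual epithelium was 1.73-fold above OSNs for Htr3a.

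In all, 36 of 80 receptor genes were lower in OSNs than in brain and 2, Drd2 and Htr1b, were higher, where 14.3% and 12.6% of all genes were. Of the 36, 30 had an OSN signal under the chip median, so that the sign of those ratios follows from the filter, and 19 had one under the floor, so that their size is a lower bound. The 6 with both signals at or above the chip median were Chrm1, Chrna7, Gabbr1, Gabrb2, Grin2d and Grm4. Over all 80 genes the median log2 ratio of OSNs over brain was -1.03, beside 0.00 over all genes. For residual epithelium over brain 39 receptor genes were lower and 0 were higher, beside 13.4% and 16% of all genes, with a median of -1.37 beside 0.00. Drd2 itself was 5.79-fold lower in residual epithelium than in brain.

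Signals at or above the chip median were found for 17 of the 80 genes in OSNs, 15 in the residual epithelium and 47 in brain, beside 57.6%, 62.6% and 61.6% of all genes. The chip median is a level, not a detection call. By kind, the brain array was at or above it for 13 of 16 ionotropic glutamate receptor genes and OSNs for 2, and for 14 and 3 of 20 GABA-A and glycine receptor genes, whereas for nicotinic receptors both had 4 of 15. There were 30 genes that reached it in brain only, 13 in all 3 populations, 3 in OSNs and brain only, 1 in OSNs and residual epithelium only, and 0 in OSNs only. Another 32 reached it nowhere. Of the 17 in OSNs, 12 were within 2-fold of residual epithelium. These patterns and this last count were not taken over all genes, so they describe the members and do not set them apart from other genes.

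Of 5 brain neuron markers, 4 were lower in OSNs than in brain. Gad1, the marker of GABA-producing neurons, was under the floor in OSNs and in residual epithelium, and Snap25 and Camk2a were higher in OSNs than in residual epithelium.

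Genes that assemble, traffic or anchor these receptors were taken from a list of 53, chosen with earlier results of these data known. Of 48 such genes on the arrays, 31 were at or above the chip median in OSNs, 27 in the residual epithelium and 43 in brain, beside 57.6%, 62.6% and 61.6% of all genes, so that the nasal counts lie near those shares. Against residual epithelium 9 were higher in OSNs and 0 lower, where 8.63% and 12.6% of all genes were, with a median log2 ratio of 0.20 beside 0.00 over all genes.

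Nptx2, a secreted pentraxin that gathers AMPA receptors, had signals of 1066 in OSNs, 90.6 in the residual epithelium and 203 in brain, which put OSNs 11.8-fold and 5.27-fold above. Its second probe set agreed in direction, at 3.81-fold and 2.24-fold. Dlg2, a scaffold protein of the PSD-95 family, read 1508, 219 and 3504, with OSNs 6.88-fold above residual epithelium, and its relatives Dlg1 and Dlg4 were 2.31-fold and 2.04-fold higher. Dlgap3, which binds these scaffolds, was 4.64-fold higher, Shank3, the next layer of the scaffold, 2.52-fold, and Nlgn3, a synaptic adhesion protein, at least 5.29-fold. A second counted Nlgn3 probe set existed only against brain, where it was 4.66-fold lower. Clptm1, which holds GABA-A receptors back in the cell, was 2.27-fold higher, but only 1.32-fold with its chip B probe set (304 and 231). Nptx1, the relative of Nptx2, was 2.0-fold higher, at the threshold. Its other probe set had both nasal signals under the floor (44.4 and 21.0).

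Against brain, 22 of the 48 partner genes were lower in OSNs and 4 higher, where 14.3% and 12.6% of all genes were. Of 12 auxiliary subunits of AMPA receptors 8 were lower, among them Cacng2 by 23.5-fold and Cacng3 by 15.8-fold, and Gsg1l by at least 8.22-fold. Within 2-fold of brain were Cacng4 (1756, 2232 and 1900), Cacng7 (811, 850 and 1301) and Shisa7 (553, 502 and 764). By these probe sets all of them reached the chip median in both nasal populations. The chip A probe set of Cacng7 was under the chip median in every population, with 85.9, 16.3 and 96.7. Homer2, a scaffold of metabotropic glutamate receptors, was 7.71-fold higher in OSNs, with signals of 17179, 12427 and 2227, which put residual epithelium above brain too, and its other 2 probe sets gave 9.33-fold and 11-fold. Gphn, the gephyrin scaffold of glycine and GABA-A receptors, was 2.34-fold higher with its chip B probe set and 1.97-fold and 3.09-fold lower with those on chip A. Among auxiliary subunits of the GABA-B receptor, Kctd16 was 2.20-fold higher than in brain and level with residual epithelium (1011, 906 and 459), Kctd8 read 223, 87.6 and 415, and Kctd12b 292, 263 and 311. The other Kctd8 probe set read 43.6, 30.1 and 478. Both nasal signals were under the floor there, and OSNs were at least 6.0-fold lower than brain.

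**Figure D4:**
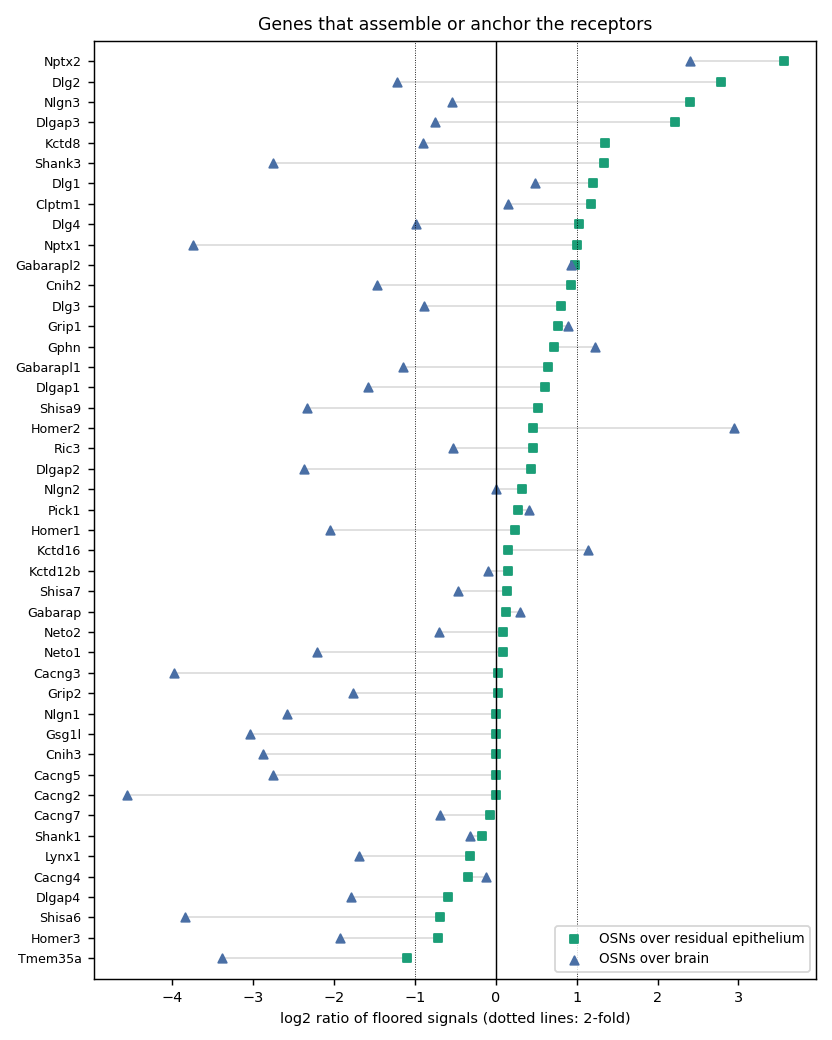
Log2 ratios (x axis) of OSNs over residual epithelium (squares) and over brain (triangles) for the 45 receptor partner genes that reached the chip median in at least 1 of the 2 comparisons, ordered by the first, with 2-fold marked by dotted lines. Nptx2 lies to the right of 2-fold in both, and Kctd8 and Tmem35a lie past 2-fold against residual epithelium without reaching the signal filter there.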

How the data were processed

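The authors deposited 1 linear intensity per probe set and array, made with MAS5 per the submitters' processing notes, which name it for 5 of the 6 arrays. The sources used here state no version, background correction, scaling target or detection call. Trimmed means over percentiles 2 to 98 were 500.08 to 500.14 on every array. Scaling to a common mean lowers the other signals of a population in which few transcripts take much of the RNA.

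Control probe sets (128) were left out of gene counts. Symbols came from the platform annotation, and Entrez identifiers gave all members the same symbol in the RefSeq table of GRCm38.p6. A gene with several probe sets took its ratio from the one whose mean log2 signal ranked highest among all probe sets of the same chip, and log2 ratios were taken from floored signals within a chip. The computation was tested on simulated arrays. Genes named are those called between OSNs and residual epithelium, those at or above the chip median in OSNs, the 2 highest and 2 lowest ratios of OSNs over brain in each family, and those whose probe sets were called in opposite directions between OSNs and residual epithelium. Gabrg1, Grm7, Drd3, Drd4, Chrm3, Chrm4 and Chrna9 were added after their values were seen. The members and lists were chosen with earlier results of these data known. Alternatives were floors at percentile 10 and 40, a pseudocount, no filter, a filter at percentile 75, centred ratios, quantile normalization, scaling on shared probe sets, the median over probe sets, a 3-fold threshold and current symbols. Values were computed in Python 3.11.15 with pandas 2.3.3 and numpy 2.4.6, and plotted with matplotlib 3.10.9. The number of arrays limits the precision.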

Additional observations from a re-analysis of the deposited data

How the results depend on the processing

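The count of receptor genes lower in OSNs than in brain ranged from 29 to 41 over the 11 alternatives, and that for residual epithelium over brain from 29 to 45. Drd2 and Gabbr1 were called higher in OSNs than in residual epithelium under each. Only these 2 were called, in place of 4, with a pseudocount (2), with the median over probe sets (2) and with a 3-fold threshold (2). The count of lower genes went from 2 to 1 with the filter at percentile 75, which removed Glrb, and the median over probe sets replaced Glrb by Grin3a. Genes higher in OSNs than in brain went from 2 to 1, losing Htr1b, with a pseudocount (1), centred ratios (1), scaling on shared probe sets (1), the median over probe sets (1) and a 3-fold threshold (1). For Htr1b the log2 ratio over brain reversed to -0.54 with the median over probe sets, because its 2 probe sets oppose each other. At percentile 75 in place of the chip median, 31 genes passed in brain, 7 in OSNs and 3 in residual epithelium. With the median over probe sets 8 passed in OSNs and 6 in residual epithelium. The other 67 of 81 recomputed counts stayed within 1.5 times the main count. No replicate could be left out, because each population had 1 array per chip. Signals under the floor have no order, so for the 41 genes under it in OSNs a ratio is a lower bound or, with both signals under it, undefined.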

Other observations

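The genes beside the receptors higher in OSNs within the epithelium were read from the order of protein-coding genes in the RefSeq table of GRCm38.p6, as values with no explanation. Near Drd2, Ncam1, a neural adhesion molecule, read 7548 in OSNs, 4552 in residual epithelium and 1874 in whole brain without bulbs, and Ttc12, a gene of motile cilia assembly, had 241, 125 and 81.4. Zw10, a kinetochore gene on the other side, had 646, 711 and 440. Of these genes Drd2 alone was called past 2-fold between OSNs and residual epithelium, while Ncam1 was also higher in OSNs than in brain. Gabbr1 lies between Mog, a myelin gene with signals of 4.0, 25.6 and 678, and a run of odorant receptor genes (Olfr90, Olfr91 and Olfr92), which were not analysed here.

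The 2 probe sets whose annotation gives a receptor gene together with another gene were left out of all counts. One, annotated to Grm2 and Gm28111, read 513, 581.7 and 384 in the same order of populations, a pattern unlike that of the Grm2 probe set with a single symbol (119, 139 and 828). The other, which gives Gabrg3 as 1 of its symbols, read 22.1, 24.3 and 296.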
